A study of Mus musculus with 4 samples.

Results

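The genes described here are 34 genes of cholesterol and fatty acid synthesis and of their control, found by gene symbol among the 54532 genes of the deposited expression table. They comprise 6 enzymes of the mevalonate and isoprenoid steps, 11 enzymes from squalene to cholesterol, 5 genes of the SREBP machinery, 4 enzymes of fatty acid synthesis, 6 of fatty acid desaturation and elongation, and 2 genes of sterol transport and efflux. All 34 have a row in the table, and 31 reached the testing level, which was an average of 1 FPKM or more across the 4 libraries. FPKM is the number of fragments scaled to gene length and to a size set for each library, so levels of different genes in a library can be set side by side.

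Cells make cholesterol from acetyl-CoA through mevalonate, isoprenoids, squalene and lanosterol, and make fatty acids from the same precursor, with most of the late sterol enzymes residing in the endoplasmic reticulum (ER). Both routes are switched on by the SREBP transcription factors, which are held in the ER membrane by the escort protein SCAP and the retention proteins INSIG1 and INSIG2 while sterols are plentiful, and which travel to the Golgi for cleavage when sterols fall. In the lung this programme is best known for supplying surfactant lipids in epithelial cells, while in fibroblasts it serves mainly membrane growth.

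The libraries were made from cells labelled as mouse primary fibroblasts, of lung according to the titles, with 2 libraries of the genotype Calu-WT (WT here) and 2 of the genotype Calu-KO. Calumenin, the product of Calu, binds calcium in the ER lumen, and no other allele, treatment, age or strain is given for either group. The titles call the Calu-KO libraries KD, and the sources used here do not give the targeting method, the number of clones or whether the 2 libraries of a genotype stem from different animals or cultures. The p-values therefore cover the spread among these 4 libraries alone, which may be technical. By its title the study concerns calumenin, misfolded vimentin and organ fibrosis, and the only contrast it offers is Calu-KO against WT.

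Libraries held 15635448 to 16510048 reads, recovered from the FPKM values. The FPKM values were not scaled to these totals. The library size they imply was 1.64e+07 for WT replicate 1 (15635448 reads) and 1.66e+07 for WT replicate 2 (16033535 reads). It was 1.69e+07 for Calu-KO replicate 1 (16510048 reads) and 1.46e+07 for Calu-KO replicate 2 (16038560 reads). Values of Calu-KO replicate 2 therefore stand higher against the other libraries than equal total reads would place them. Calu stood at 178 and 177 FPKM in WT and at 14.9 and 10.9 FPKM in Calu-KO, 13.7-fold lower (limma log2 change -3.70 ± 0.17, adjusted p = 0.00493). Calu-KO replicate 2 stood apart. In it 4.0% of reads came from mitochondrial genes, and 2.43% to 2.53% in the others, and its log2 expression correlated at 0.938 and 0.939 with the WT libraries, against 0.964 for Calu-KO replicate 1, across genes. Of 10 fibroblast markers 7 were tested, with Dcn and Lum listed at 0 in every library, and the summed level of the 10 ran from 1180 to 1187 FPKM in WT and from 1150 to 1402 FPKM in Calu-KO. Vim, at 531 to 650 FPKM, made up much of that sum, and single markers differed: Col3a1 fell 3.25-fold (limma, adjusted p = 0.0115), while Col1a2 was 1.59-fold higher and Fn1 1.47-fold lower without passing the test (adjusted p = 0.0721 and 0.137). Alveolar type 2 markers, of the lung cell with the strongest lipid synthesis, summed to 0.396 to 0.651 FPKM over 9 genes with Sftpc and Epcam at 0 throughout, and 5 endothelial markers to 0.131 to 0.276 FPKM. Summed levels of 8 macrophage markers were 11.1 and 12.2 FPKM in WT, against 4.17 and 4.12 FPKM in Calu-KO with Adgre1 at 0, those of 6 adipocyte markers 33.4 and 35.7 FPKM against 28.9 and 28.4 FPKM with Lep at 0 (Fabp4 fell 3.68-fold, limma adjusted p = 0.0316, and Pparg was 1.16-fold higher, adjusted p = 0.301), and those of 5 mesothelial markers 35.9 and 32.7 FPKM against 25.4 and 22.6 FPKM. The 2 tested macrophage markers were both lower and 1 was called (limma, adjusted p under 0.05). The 2 tested mesothelial markers were likewise both lower, with 1 called, against 1.83% of all tested genes called lower. Whether the cells behind these markers contribute to the values below was not tested. In bulk RNA, fewer cells of a type and less RNA per cell cannot be told apart.

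None of the 31 tested genes of sterol and fatty acid synthesis passed the comparison of Calu-KO with WT over all genes (limma on log2(FPKM + 1), Benjamini-Hochberg adjustment, threshold 0.05). The share of all 11885 tested genes called was 0.942% as higher and 1.83% as lower. The lowest adjusted p among the 31 was 0.112, for Scd1. At an unadjusted p under 0.05 limma gave 6 genes, all higher in Calu-KO (19.4% of 31, against 12.0% of all tested genes), namely Scd1, Scd2, Hmgcs1, Srebf1, Acss2 and Dhcr7, and 0 lower (against 12.7%). A fit of limma's voom to the recovered reads also called 0 of the 31, against 3.04% of all tested genes higher and 3.95% lower in that fit. At an unadjusted p under 0.05 it gave 7 of the 31 higher and 3 lower, against 14.1% and 13.6% of all tested genes. Most differences nevertheless pointed the same way. The log2 change was positive for 23 of the 31 (74.2%, against 50.7% of all tested genes). Its median was 0.23, against 0.0072 for all tested genes, and it ranged from -0.46 for Mvd to 0.63 for Acaca. Both Calu-KO libraries lay above both WT libraries for 18 of the 31 (58.1%, against 32.0% of all tested genes) and below both for 4 (12.9%, against 29.7%). These counts use FPKM as deposited, not rescaled to equal total reads, and some margins were small.

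The size of these differences depended on the library. Calu-KO replicate 2 was farther from the WT mean than replicate 1 for 25 of the 31 genes (80.6%, against 67.8% of all tested genes). The median difference from the WT mean was 0.14 in Calu-KO replicate 1 and 0.30 in replicate 2, and 21 and 23 genes lay above it. The values also depend on how the libraries are scaled. With libraries rescaled to equal total reads, the median log2 change of the 31 over both Calu-KO libraries was 0.12, with 19 positive, against -0.088 for all tested genes. Relative to the median of all tested genes, the median of the 31 was 0.21 after rescaling and 0.22 before it. The typical absolute difference between the 2 Calu-KO libraries was 0.24 (median), against 0.053 between the 2 WT libraries. With Calu-KO replicate 1 left out, 16 of the 31 were called higher and 4 lower (24.6% and 23.6% of all tested genes). With Calu-KO replicate 2 left out, 5 were called higher and 1 lower (7.76% and 9.51%). In both of these fits the spread within a group comes from the WT libraries alone, and the lone Calu-KO library is assumed to vary like them. With WT replicate 1 left out 0 of the 31 were called, against 0.0841% of all tested genes higher and 0.320% lower, and with WT replicate 2 left out 0 were called, against 0.0673% and 0.286%. So few genes were called in these fits that 0 of 31 says little about the set.

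**Figure D1:**
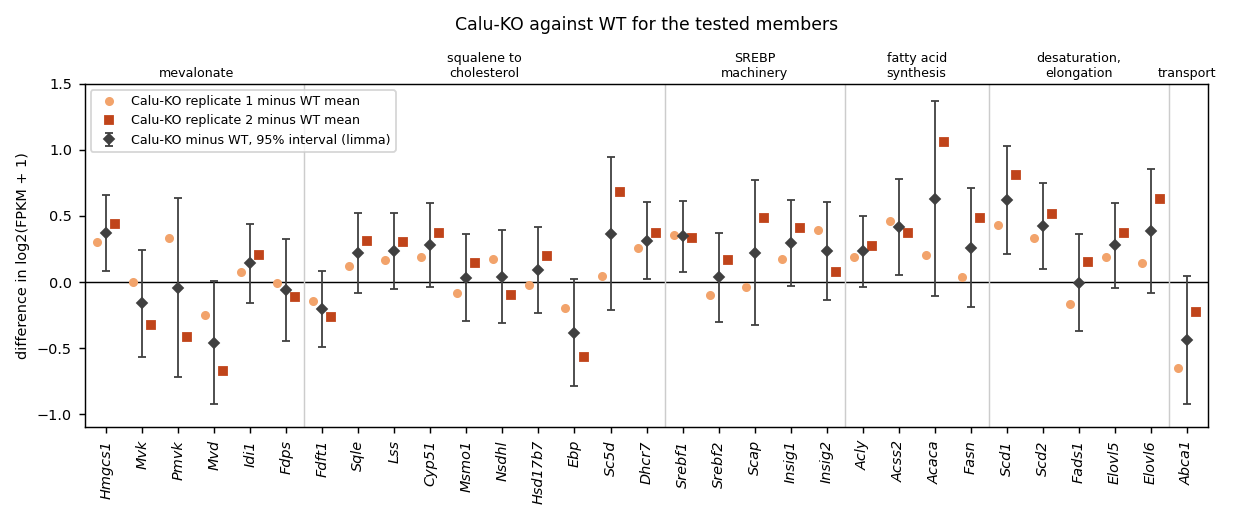
Difference between Calu-KO and WT in log2(FPKM + 1) for the 31 tested genes, ordered by their place in the pathway, with the limma estimate and its 95% interval (diamonds and bars, n = 2 libraries per group) and each Calu-KO library against the WT mean. Most diamonds lie above 0, from -0.46 for Mvd to 0.63 for Acaca, and replicate 2 (squares) is usually the farther of the 2 libraries.

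Promoters of the same pathway are bound by SREBP together with the factors NF-Y and Sp1. RefSeq promoter windows (build GRCm38.p6, the build of the deposited coordinates, from 250 bases before to 50 after a start) were found for 27 of the 34 genes, 35 windows in all. They were searched on both strands for TCACNCCAC, a core of the sterol regulatory element, CCAAT, the NF-Y box, GGGCGG, the Sp1 box, and CACGTG, an E-box, none of which contains another. A CCAAT was present in a window of 22 of the 27 genes (81.5%), against 41.1% of all 27025 RefSeq genes and 44.0% of the 8392 tested genes with a window. GGGCGG was present in 22 (81.5%, against 38.2% and 70.3%), CACGTG in 7 (25.9%, against 8.09% and 12.2%) and TCACNCCAC in 1, Hmgcs1 (3.7%, against 1.44% and 1.38%). The median log2 change was 0.23 for the 21 tested genes with a CCAAT and 0.30 for the 4 without. No window was found for Scd1, Scd2 and Sqle, among others, so these medians leave them out. The 200 bases before the start are printed for 4 genes. They show the only match to the element core, and the spacing of CCAAT boxes in genes of the mevalonate steps and of fatty acid synthesis. Genes of the other roles are not printed. Hmgcs1 holds the element core with 2 CCAAT boxes (chr13:119690151-119690350, plus strand). Mvk has the most boxes of the 27 genes, 5 (chr5:114444069-114444268, plus strand). Acss2 has 1 (chr2:155517843-155518042, plus strand), and Fasn has 3, a pair of them overlapping (chr11:120824548-120824747, minus strand). Capitals mark TCACNCCAC and CCAAT on either strand, and sequences read 5′ to 3′ towards the start.
Hmgcs1: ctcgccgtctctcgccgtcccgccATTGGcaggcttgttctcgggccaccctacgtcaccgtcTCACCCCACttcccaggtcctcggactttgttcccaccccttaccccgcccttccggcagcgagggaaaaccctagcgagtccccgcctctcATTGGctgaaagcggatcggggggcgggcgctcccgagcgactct
Mvk: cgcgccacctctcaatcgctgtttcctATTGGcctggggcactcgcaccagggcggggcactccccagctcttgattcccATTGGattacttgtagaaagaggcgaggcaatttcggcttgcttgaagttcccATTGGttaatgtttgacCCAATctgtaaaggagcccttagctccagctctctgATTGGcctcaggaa
Acss2: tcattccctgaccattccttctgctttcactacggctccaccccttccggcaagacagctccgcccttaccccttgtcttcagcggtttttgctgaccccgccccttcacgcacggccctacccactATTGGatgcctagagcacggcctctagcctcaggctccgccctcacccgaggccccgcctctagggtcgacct
Fasn: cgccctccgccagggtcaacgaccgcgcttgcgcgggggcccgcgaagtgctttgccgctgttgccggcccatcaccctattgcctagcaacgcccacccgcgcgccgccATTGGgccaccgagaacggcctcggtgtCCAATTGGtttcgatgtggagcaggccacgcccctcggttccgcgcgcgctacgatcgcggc

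In the Hmgcs1 stretch the element core begins 137 bases before the start, between CCAAT boxes that begin 176 and 45 bases before it. In Mvk the boxes begin 173, 120, 67, 50 and 14 bases before the start. The log2 changes were 0.42 for Acss2, 0.37 for Hmgcs1, 0.26 for Fasn and -0.16 for Mvk, and no relation to the boxes was tested. These matches describe letters and were not tested as binding sites.

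Mean levels ran from 0.160 FPKM for Fads2 to 308 FPKM for Scd2 among the 33 genes with reads. Scd2, a stearoyl-CoA desaturase, was the most abundant in every library, followed by Cyp51, the lanosterol demethylase, and Scd1, and the 34 genes summed to 1334 and 1324 FPKM in WT and to 1512 and 1731 FPKM in Calu-KO. Without Scd1 and Scd2 the sums were 972 and 970 FPKM against 1052 and 1187 FPKM. Genes of desaturation and elongation held 36.1% and 35.9% of the summed level in WT and 38.3% and 40.1% in Calu-KO, while the mevalonate steps held 9.42% and 9.23% against 9.15% and 7.67%.

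**Figure D2:**
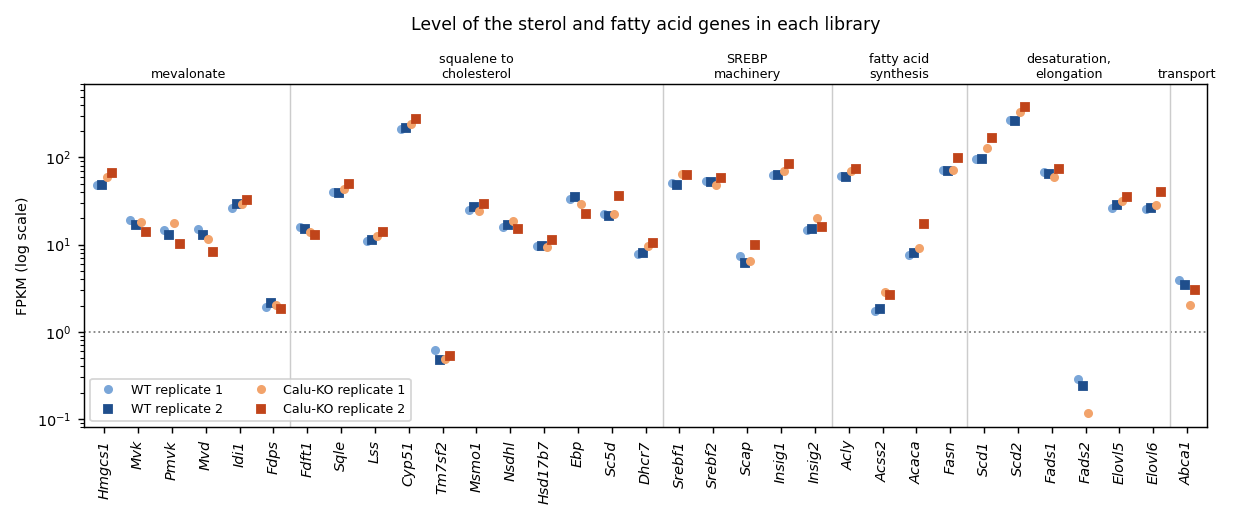
FPKM of 33 of the 34 genes in each library on a log axis, grouped by their role, with WT in blue and Calu-KO in orange. Stard4, listed at 0 in every library, and Fads2 in Calu-KO replicate 2, with no reads, are not drawn, and the dotted line marks 1 FPKM. Scd2, Cyp51 and Scd1 stand highest, and the 2 WT points nearly coincide for most genes while the Calu-KO points spread.

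The mevalonate steps did not share a direction. Hmgcs1, the cytosolic synthase that makes HMG-CoA, the precursor of mevalonate (ENSMUSG00000093930, chromosome 13, 119690379 to 119708260, mm10), stood at 48.4 and 48.8 FPKM in WT and at 60.1 and 66.4 FPKM in Calu-KO. Both Calu-KO libraries lay above both WT libraries, and the mean was 1.30-fold higher (log2 change 0.37 ± 0.11, SE; adjusted p = 0.141). Idi1, which interconverts the isoprenoid building blocks, stood at 26.5 and 28.9 FPKM in WT, against 29.2 and 32.1 FPKM in Calu-KO (log2 change 0.14 ± 0.12). The groups did not overlap, but by only a small margin.

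The kinases and the decarboxylase that follow mevalonate were not higher. Mvd, which makes isopentenyl diphosphate, stood at 14.9 and 12.8 FPKM in WT and at 11.5 and 8.32 FPKM in Calu-KO, the lowest log2 change of the set (-0.46 ± 0.18, adjusted p = 0.205). Mvk, mevalonate kinase, stood at 19.2 and 16.7 FPKM against 18.0 and 14.1 FPKM, with overlapping groups (log2 change -0.16 ± 0.16). Pmvk, phosphomevalonate kinase, stood at 14.7 and 12.8 FPKM in WT, while its Calu-KO libraries lay on either side, at 17.5 and 10.03 FPKM (log2 change -0.042 ± 0.26). Fdps, which makes farnesyl diphosphate, was low for an enzyme of this route, at 1.93 and 2.15 FPKM in WT, against 2.02 and 1.81 FPKM in Calu-KO, from 111 to 150 reads a library. In the GENCODE M21 annotation 26.7% of its exonic bases are also exonic in Gm43738 on the same strand, and the treatment of shared reads is not stated, so its level is uncertain.

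From squalene onward, 8 of 10 tested enzymes had a positive log2 change (80%, against 50.7% of all tested genes), with a median of 0.15. The 8 include Msmo1, Nsdhl and Hsd17b7, for which no direction can be given (below). Cyp51 (ENSMUSG00000001467, chromosome 5, 4081145 to 4104746) stood at 211 and 216 FPKM in WT and at 244 and 276 FPKM in Calu-KO, 1.22-fold higher in the mean (log2 change 0.28 ± 0.12, adjusted p = 0.234). Sqle, squalene epoxidase and a rate-limiting step, stood at 40.5 and 39.3 FPKM against 43.6 and 49.8 FPKM (log2 change 0.22 ± 0.12, adjusted p = 0.308). Lss, which closes the sterol rings, stood at 11.1 and 11.2 FPKM against 12.7 and 14.04 FPKM (log2 change 0.24 ± 0.11). In each of these 3 genes both Calu-KO libraries lay above both WT libraries, with replicate 2 the higher.

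Dhcr7, which reduces the last double bond on one route to cholesterol, stood at 7.73 and 8.05 FPKM in WT and at 9.60 and 10.5 FPKM in Calu-KO (log2 change 0.31 ± 0.11, adjusted p = 0.184). Sc5d, the sterol C5 desaturase, stood at 22.6 and 21.3 FPKM in WT, against 22.7 FPKM in Calu-KO replicate 1, and only replicate 2 was clearly apart, at 35.9 FPKM (log2 change 0.37 ± 0.23). Fdft1, squalene synthase, went the other way with 16.1 and 15.2 FPKM against 14.03 and 12.8 FPKM (log2 change -0.20 ± 0.11). So did Ebp, the sterol isomerase, with 33.0 and 34.9 FPKM in WT, against 29.5 and 22.5 FPKM in Calu-KO (log2 change -0.38 ± 0.16, adjusted p = 0.216), both groups without overlap. Fdft1 shares 18.3% of its exonic bases with Ctsb on the opposite strand, and without a stated strand setting their reads there cannot be told apart. Scap (13.2%), Hmgcs1 (12.1%), Idi1 (9.22%) and Acss2 (9.12%) also share exonic bases with genes on the opposite strand.

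The C4-demethylation enzymes Msmo1, Nsdhl and Hsd17b7 had overlapping groups and log2 changes of 0.032 ± 0.13, 0.041 ± 0.14 and 0.090 ± 0.13. With libraries rescaled to equal total reads their log2 changes were -0.073, -0.061 and -0.0094, so no direction can be given for them. Tm7sf2, a sterol C14 reductase, was under the testing level at 0.474 to 0.622 FPKM, from 43 to 57 reads a library. It shares 12.1% of its GENCODE exonic bases with Vps51 on the same strand, itself at 0.231 to 0.399 FPKM.

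All 5 genes of the SREBP machinery had a positive log2 change (median 0.23), as did 50.7% of all tested genes. The 2 factor genes differed in how far apart their groups lay. Srebf1, whose products drive mainly fatty acid genes (ENSMUSG00000020538, chromosome 11, 60199089 to 60222581), stood at 51.0 and 48.4 FPKM in WT and at 63.9 and 62.9 FPKM in Calu-KO. The Calu-KO libraries lay close together above WT, and the mean was 1.28-fold higher (log2 change 0.35 ± 0.10, 95% interval 0.077 to 0.62, adjusted p = 0.142). Srebf2, the main factor of sterol genes (ENSMUSG00000022463, chromosome 15, 82147181 to 82205379), stood at 53.04 and 51.7 FPKM in WT, with one Calu-KO library below and one above, at 48.9 and 58.8 FPKM (log2 change 0.034 ± 0.13, 95% interval -0.30 to 0.37, and -0.073 with libraries rescaled to equal total reads). Srebf1 made up 49.0% and 48.3% of the summed level of the 2 genes in WT and 56.6% and 51.7% in Calu-KO. The gene-level values do not separate the SREBP-1a and SREBP-1c transcripts of Srebf1.

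Insig1, itself a target of SREBP, stood at 62.1 and 62.5 FPKM in WT and at 70.4 and 83.2 FPKM in Calu-KO (log2 change 0.29 ± 0.13, adjusted p = 0.232). Insig2 stood lower, at 14.8 and 15.2 FPKM against 20.01 and 15.9 FPKM (log2 change 0.23 ± 0.14), so that Insig1 took 80.8% and 80.4% of the pair in WT and 77.9% and 84.0% in Calu-KO. Both genes lay above WT in both Calu-KO libraries by deposited FPKM, with Insig1 higher in replicate 2 and Insig2 in replicate 1. For Insig2 the margin in replicate 2 was small and depends on the scaling. It had 805 reads there, against 840 and 878 in the WT libraries. Scap stood at 7.47 and 6.07 FPKM in WT and at 6.52 and 9.83 FPKM in Calu-KO, with overlapping groups (log2 change 0.22 ± 0.21).

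In fatty acid synthesis all 4 enzymes lay above both WT libraries in both Calu-KO libraries, as did 32.0% of all tested genes. Their median log2 change was 0.34, with 0 past the threshold. For Fasn the margin was small, with 72.7 FPKM in Calu-KO replicate 1 against 72.1 FPKM in WT replicate 1. Acly, which cuts citrate into acetyl-CoA, stood at 60.7 and 60.4 FPKM in WT and at 69.1 and 73.4 FPKM in Calu-KO (log2 change 0.23 ± 0.11, adjusted p = 0.249). Acss2, which makes acetyl-CoA from acetate, was scarce, at 1.75 and 1.84 FPKM against 2.85 and 2.61 FPKM, 1.52-fold higher in the mean (log2 change 0.42 ± 0.14, adjusted p = 0.169). In Acss2, unlike the other 3, Calu-KO replicate 1 was the higher.

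The committed steps differed mainly in Calu-KO replicate 2. Acaca, acetyl-CoA carboxylase (ENSMUSG00000020532, chromosome 11, 84129672 to 84401651), stood at 7.66 and 8.09 FPKM in WT, at 9.24 FPKM in Calu-KO replicate 1 and at 17.4 FPKM in replicate 2. Its mean was 1.69-fold higher (7.87 ± 0.309 to 13.3 ± 5.80 FPKM, SD, n = 2 each), but its log2 change was 0.21 without Calu-KO replicate 2 and 1.06 without replicate 1, against 0.63 ± 0.29 with both (adjusted p = 0.248). Fasn, fatty acid synthase (ENSMUSG00000025153, chromosome 11, 120805846 to 120824547), stood at 72.1 and 69.6 FPKM in WT, at 72.7 FPKM in Calu-KO replicate 1 and at 99.4 FPKM in replicate 2 (log2 change 0.26 ± 0.18, adjusted p = 0.388, and 0.037 without Calu-KO replicate 2).

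The desaturases that place the first double bond had the lowest adjusted p-values of the set. Scd1 (ENSMUSG00000037071, chromosome 19, 44394451 to 44407709) stood at 95.3 and 95.2 FPKM in WT and at 129 and 168 FPKM in Calu-KO. Both Calu-KO libraries were well above the WT pair, and the mean was 1.56-fold higher (95.2 ± 0.0244 to 148 ± 27.5 FPKM, SD, n = 2 each; log2 change 0.62 ± 0.16, 95% interval 0.21 to 1.03, adjusted p = 0.112). Scd2, its neighbour on the chromosome (ENSMUSG00000025203, 44293676 to 44306864), stood at 267 and 259 FPKM against 331 and 376 FPKM, 1.35-fold higher (log2 change 0.42 ± 0.13, 95% interval 0.10 to 0.75, adjusted p = 0.138). Scd1 made up 26.3% and 26.9% of the pair in WT and 28.0% and 30.9% in Calu-KO. Exact permutation of 2 against 2 libraries cannot give a small p, so these shares are given without a test. The 2 genes are close paralogs, and how reads matching both were counted is not given. Over 12 alternatives the log2 change of Scd1 ran from 0.43 to 0.81 and that of Scd2 from 0.32 to 0.51.

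The elongases were similar in level. Elovl6, which extends palmitate to stearate, stood at 25.7 and 26.0 FPKM in WT and at 28.7 and 40.5 FPKM in Calu-KO (log2 change 0.39 ± 0.18, adjusted p = 0.259). Elovl5, which extends polyunsaturated chains, stood at 26.0 and 28.8 FPKM against 31.3 and 35.6 FPKM (log2 change 0.28 ± 0.12). In both genes the Calu-KO libraries lay above WT, but Elovl6 separated mainly in replicate 2.

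The front-end desaturases did not follow. Fads1, the delta-5 desaturase, stood at 67.2 and 65.4 FPKM in WT and on either side of them in Calu-KO, at 59.1 and 73.9 FPKM (log2 change -0.0044 ± 0.14, 95% interval -0.37 to 0.36). Fads2, the delta-6 desaturase that acts before it, was not tested, with 7 and 6 reads in the WT libraries against 3 and 0 in the Calu-KO libraries. The deposited length of Fads2 is 1508 bases, against 3295 exonic bases in GENCODE M21, and over all members 29 of 34 had the same length in both. Fads1 was also shorter in the deposited table, at 3456 against 4812 bases. Fads3, the next gene of the cluster and no member, stood at 104 FPKM in both WT libraries and at 119 and 119.6 FPKM in Calu-KO.

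Of the sterol transport genes, Abca1, the efflux pump that is switched on by the oxysterol receptors LXR, was lower in both Calu-KO libraries. It stood at 3.96 and 3.49 FPKM in WT and at 2.01 and 3.02 FPKM in Calu-KO, a mean 1.48-fold lower (log2 change -0.44 ± 0.19, 95% interval -0.93 to 0.047, adjusted p = 0.230). The groups did not overlap, and Calu-KO replicate 1, not replicate 2, was the farther from WT. Stard4, a cytosolic sterol carrier, was listed at 0 in every library. Its neighbours Camk4 and Nrep were also listed at 0, while Wdr36 and Epb41l4a, farther out on either side, stood at 31.6 to 40.8 FPKM and 3.25 to 6.45 FPKM.

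Within the set, differences from WT moved with gene length in Calu-KO replicate 2. The 5 tested members shorter than 3000 bases, Mvk, Pmvk, Mvd, Nsdhl and Ebp, were all below the WT mean there (median -0.41), and 23 of the 26 longer ones were above it (median 0.35). In Calu-KO replicate 1 the counts were 3 of 5 above for the shorter and 18 of 26 above for the longer genes, with medians of 0.0035 and 0.16. The split at 3000 bases was chosen after the values were seen. Across the 31 genes Spearman's rho between length and difference from WT was 0.547 in replicate 2 and 0.0782 in replicate 1, and across all 11885 tested genes it was 0.366 and 0.0728. A trend on GC content was present in both Calu-KO libraries. Its rho was -0.255 in replicate 2 and -0.190 in replicate 1 across the 31 genes. Across the 11875 tested genes with a GC value it was -0.308 and -0.260. Genes share their libraries, so these are descriptions. The members had a median length of 4866 bases against 3885 bases for all tested genes, and a median GC content of 48.7% against 49.4%.

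With the trends on GC content and length over all tested genes removed from each library, an alternative added after the data were seen, 24 of the 31 log2 changes were positive and their median was 0.19, with 0 past the threshold. The log2 change of Srebf1 was then 0.465 (adjusted p = 0.0575, limma), the lowest adjusted p of the set in that fit, and that of Scd1 was 0.55. Hmgcs1 stood at 0.23 and Acaca at 0.42, and of the genes that were lower, Mvd stood at -0.17 and Abca1 at -0.60.

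**Figure D3:**
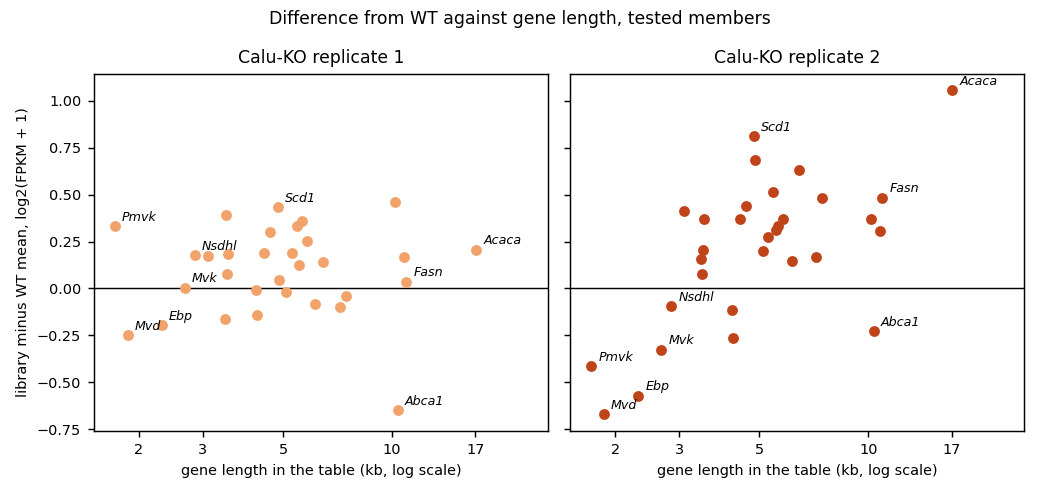
Difference of each Calu-KO library from the WT mean in log2(FPKM + 1) against gene length in the deposited table, on a log axis, for the 31 tested genes. In replicate 2 the 5 genes shorter than 3000 bases lie below 0 and Acaca, the longest, lies highest, at 1.06, and in replicate 1 no such order is seen.

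Other lipid genes, from 7 lists written for this purpose after earlier results of these data were known, gave 3 calls in all, 1 higher and 2 lower. Over all tested genes 0.942% were called higher and 1.83% lower, and 12.0% and 12.7% were higher and lower at an unadjusted p under 0.05. Of 11 tested genes of other sterol and isoprenoid steps and 17 of other fatty acid steps, 0 passed (limma; 0 in the first list and 1 higher and 3 lower in the second at an unadjusted p under 0.05), with median log2 changes of -0.069 and 0.037. In the second list Me1, the malic enzyme that supplies NADPH for lipid synthesis, stood at 27.7 and 28.8 FPKM in WT, against 38.9 and 43.8 FPKM in Calu-KO (log2 change 0.53 ± 0.12, adjusted p = 0.0888). Among 18 tested genes of SREBP processing and turnover 3 were higher and 1 lower at an unadjusted p under 0.05, and 1 rose, Sec23a, a coat protein of the vesicles that leave the ER, from 22.0 ± 0.457 to 62.0 ± 5.94 FPKM (2.82-fold, SD, n = 2 each; log2 change 1.45 ± 0.12, adjusted p = 0.0199). The median log2 change of these 18 was 0.12, and 14 were positive (77.8%, against 74.2% of the 31 genes and 50.7% of all tested genes). Both Calu-KO libraries lay above both WT libraries for 9 of the 18 (50%, against 32.0% of all tested genes). They lay below both for 2 (11.1%, against 29.7%). The SREBP proteases Mbtps1 and Mbtps2 stood at 11.2 ± 0.830 and 6.69 ± 0.0980 FPKM in WT and at 14.2 ± 1.51 and 6.69 ± 1.39 FPKM in Calu-KO (adjusted p = 0.215 and 0.969).

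Of 8 tested LXR receptors, partners and targets 0 passed (limma; 0 higher and 3 lower at an unadjusted p under 0.05, the latter 37.5% against 12.7% of all tested genes), with a median log2 change of -0.17. Nr1h3 and Nr1h2, which encode the LXR receptors, had log2 changes of -0.37 ± 0.12 and -0.57 ± 0.23, and Mylip, an LXR target that marks lipoprotein receptors for degradation, -0.48 ± 0.12 (adjusted p = 0.148, 0.206 and 0.113). Of 17 genes of sterol uptake, transfer and storage 1 fell, Vldlr, a lipoprotein receptor, from 7.74 and 7.82 FPKM to 0.499 and 0.850 FPKM (11.5-fold, adjusted p = 0.0143), with a list median of -0.081. At an unadjusted p under 0.05, 7 of these 17 were lower (41.2%, against 12.7% of all tested genes) and 3 higher (17.6%, against 12.0%). Among 19 genes of triglyceride and phospholipid synthesis 0 passed (limma; 1 higher and 0 lower at an unadjusted p under 0.05, median -0.072). Among 16 of fatty acid oxidation 1 fell, Ppargc1a, a coactivator of mitochondrial and oxidation genes, from 3.08 and 2.68 FPKM to 0.242 and 0.280 FPKM (log2 change -1.62 ± 0.17, adjusted p = 0.0266), with a median of -0.014 and with 3 higher and 2 lower at an unadjusted p under 0.05.

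**Figure D4:**
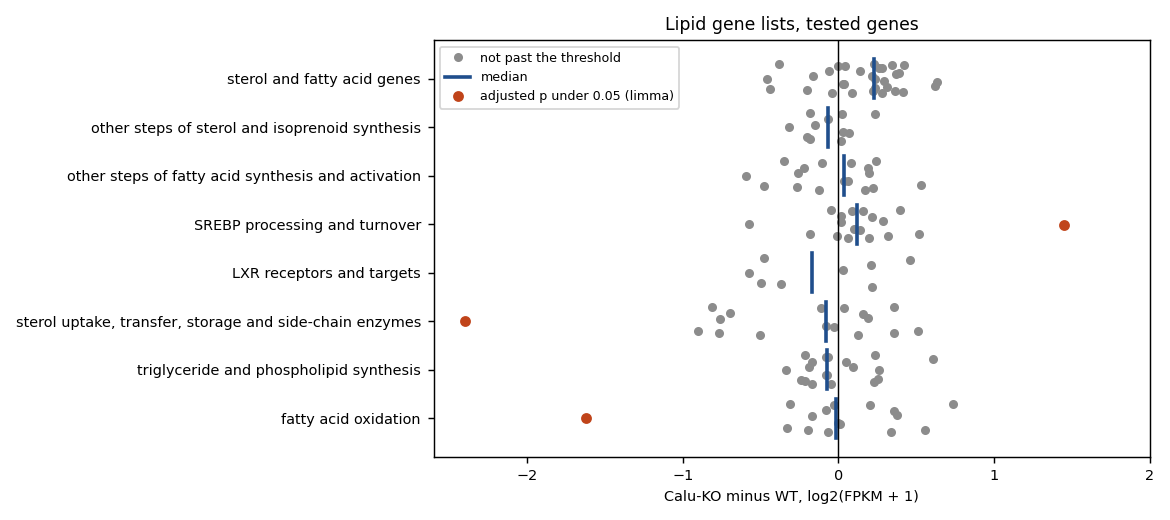
Log2 change (Calu-KO minus WT, horizontal axis) of every tested gene in the sterol and fatty acid set and in the 7 other lipid lists, with list medians as bars and genes past the threshold in red. The set has the highest median, 0.23, followed by SREBP processing and turnover, 0.12. No gene of the set is past the threshold, and the 3 called genes, Vldlr, Ppargc1a and Sec23a, lie in other lists.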

How the data were processed

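RNA sequencing of 2 WT and 2 Calu-KO libraries was analysed from 1 deposited table of FPKM values for 54532 genes. Per the labels' protocols, reads were aligned with HISAT2 2.0.5, and per the submitters' processing notes the build was mm10. The sources used here give no read counter, annotation or strand setting. Multiplied by the deposited length, the authors' FPKM values were whole numbers of a step specific to each library (100% of values, within 0.001 reads), which recovered the reads. For a 1 kb gene, 1 read equalled between 0.0591 and 0.0684 FPKM. The other deposited column used is the gene length.

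Values were tested as log2(FPKM + 1), which understates changes of low genes, for the 11885 genes averaging 1 FPKM or more, with limma 3.58.1 in R 4.3.3 (two-sided moderated test whose prior variance follows expression, Benjamini-Hochberg over all tested genes, threshold 0.05). Folds are ratios of mean FPKM. The step was tested on simulated data. The smallest two-sided p of an exact permutation is 0.333 here.

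The members and gene lists were chosen with earlier results of these data known. Per-library values were to be given for members past the threshold, members without overlap changed by at least 0.5 (log2), the regulators and the first and rate-limiting steps, and other members' values were added after they were seen. Of the other lists, genes past the threshold were named, at most 5 per list, and Me1, Nr1h2, Nr1h3, Mylip, Mbtps1, Mbtps2 and Fads3 were added after their values were seen. Exons came from GENCODE M21 and promoters from RefSeq (GRCm38.p6). Alternatives were another pseudocount, no filter, rescaling, a replicate block, a prior without trend, voom on reads and each library left out.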

Additional observations from a re-analysis of the deposited data

How the results depend on the processing

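Over 12 alternatives 349 of 372 log2 changes of the 31 genes kept their direction, and 23 genes kept it in every one. The number of the 31 called higher ran from 0 to 16 and the number called lower from 0 to 4 when each library was left out, and both were 0 in the other 8 alternatives run. Over all tested genes 112 were higher and 217 lower in the fit reported, 45 and 152 with libraries rescaled to equal total reads, 361 and 469 with voom, and 0 and 0 with no filter on low values. Equal total reads moved the median log2 change of all genes to -0.088, and the median of the 31 genes to 0.12 with 19 positive. Relative to the median of all genes, the median of the 31 was 0.21, against 0.22 in the fit reported, and 23 lay above it in both. With a replicate block 181 genes were higher and 312 lower and 0 of the 31 were called. Same-numbered libraries showed no shared deviation from their group means (correlation 0.015 over 11885 genes). Whether the libraries were paired by origin cannot be told from this.

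In 8 genes the direction changed in at least 1 alternative. Rescaling to equal total reads gave -0.073 for Srebf2, -0.073 for Msmo1, -0.061 for Nsdhl and -0.0094 for Hsd17b7, and rescaling to equal reads outside the mitochondrial genome, added after seeing the data, gave -0.061, -0.062 and -0.050 for the first 3. Removing the GC and length trends gave 0.066 for Fads1, -0.12 for Msmo1, 0.039 for Mvk, 0.23 for Pmvk and -0.052 for Hsd17b7. With each library left out in turn, 8 genes ranged across 0: Fads1 from -0.16 to 0.15, Srebf2 from -0.097 to 0.17, Msmo1 from -0.083 to 0.15, Mvk from -0.33 to 0.0035, Nsdhl from -0.095 to 0.18, Pmvk from -0.41 to 0.33, Hsd17b7 from -0.020 to 0.20 and Scap from -0.041 to 0.48. The cause was not tested.

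With 2 libraries a group, the simulated data gave back 11.4% of genes changed by 1 on the log2 scale and 67.8% of those changed by 2. The simulation shuffled the spreads across genes, capped them and added counting noise on top, and it held no trend on length or GC content. Its rates therefore do not describe these genes at their own levels. Smaller changes, such as those of these genes, were not simulated. Low read numbers limit Fads2, Tm7sf2 and Fdps.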
